A study of Caenorhabditis elegans with 12 samples.

Results

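Translation initiation and elongation factor genes were followed across whole Caenorhabditis elegans larvae of 3 genotypes. The rule that picks them reads names and no measured value: it takes every gene whose symbol starts with eif-, eef-, ife-, ifg- or iff-, which gave 38 of the 46778 genes in the deposited count table. They comprise 3 genes for single-protein factors around the small and large subunit (eif-1, eif-1.A and eif-6), 5 for eIF2 and factors related to it by name, 5 for the eIF2B complex, 11 for eIF3 subunits, 6 for the cap-binding side (ife-1 to ife-5 and ifg-1), 2 for eIF5A and 6 for elongation factors. Some translation factors carry other names and were therefore not members, among them the eIF3 subunit egl-45 and the eIF4A helicase inf-1. All 38 members are annotated as protein coding and were matched by WormBase identifier to the Ensembl annotation of WBcel235, the build that the submitters' processing notes name.

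The worms were wild type N2 (WT), ced-3(n717), a mutant of the apoptotic caspase CED-3, and pmk-1(km25), a mutant of the p38 MAP kinase PMK-1. The labels name no other allele in any group. Per the labels' protocols, eggs of day-1 adults were kept in buffer without food for 24 h, and the arrested first-stage larvae then fed on OP50 bacteria at 20 °C for 18 h, by which time nearly all WT worms were third-stage larvae. In each genotype, 2 replicates gave a library of total mRNA and a library of ribosome-protected fragments (RPF), the pieces of mRNA that a ribosome shields from nuclease. That makes 12 libraries in 6 groups. The question was how the caspase and the kinase each affect mRNA levels and ribosome occupancy in a developing larva.

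Initiation factors bring the small ribosomal subunit, the initiator tRNA and a capped mRNA together. eIF2 carries the initiator tRNA and is recharged with GTP by eIF2B, eIF4E binds the cap and eIF4G links it to the ribosome, and eIF3 is the large scaffold on the small subunit. Elongation factors then deliver each aminoacyl-tRNA (eEF1A), recharge eEF1A with GTP (the eEF1B subunits) and move the ribosome along by a codon (eEF2). In C. elegans several of these are families of paralogs, with eIF4E and eIF5A forms used more in the germline or more in the soma.

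Total counts ran from 15471380 to 17150137 in the mRNA libraries and from 6708805 to 10115985 in the RPF libraries, the lowest being ced-3 RPF replicate 1. Levels below are CPM as edgeR gives them, each count relative to its library's size, with sizes scaled by TMM factors within the 6 mRNA libraries or within the 6 RPF libraries. The mRNA of pmk-1 was at 37.1 and 35.5 CPM in WT, 37.9 and 41.0 in ced-3, and 35.5 and 35.3 in pmk-1. That of ced-3 was at 5.02 and 2.29 CPM in WT, 5.43 and 6.42 in ced-3, and 2.57 and 2.30 in pmk-1, so both libraries labelled ced-3 lay above the other 4 (adjusted p = 0.32 by edgeR against WT). RPF of pmk-1 were 47.2 and 52.3 CPM in WT, 42.6 and 48.5 in ced-3, and 25.04 and 25.4 in pmk-1, so both libraries labelled pmk-1 lay below the other 4 (adjusted p = 0.14 by edgeR against WT). The ced-3 allele is a point mutation, which gene counts do not check. Marker genes of each tissue of a whole worm were detected, namely 16 of 16 for germline, 8 of 8 for hypodermis, 7 of 7 for muscle, 8 of 8 for neurons and 10 of 10 for moulting. Of the 9 intestinal genes found 8 were detected, and the embryonic gene end-3 was at 0 in every library. In whole worms, fewer cells of a type and less RNA per cell cannot be told apart. The summed intestinal markers had 4749.6 and 5151 CPM in WT, 4265 and 3462 in ced-3, and 4448 and 4256 in pmk-1 in mRNA, and 9016 and 7876 CPM in WT, 5007 and 4029 in ced-3, and 6815 and 6748 in pmk-1 in RPF. The summed moulting genes had 290.0 and 358 CPM in WT, 778 and 1207 in ced-3, and 4011 and 944 in pmk-1 in mRNA. The summed hypodermal markers had 312 and 329 CPM in WT, 547 and 747 in ced-3, and 426 and 335 in pmk-1 in mRNA. The summed neuronal markers had 548 and 551 CPM in WT, 641 and 633 in ced-3, and 579.6 and 552 in pmk-1 in mRNA, and 670.3 and 604 CPM in WT, 814 and 724 in ced-3, and 677 and 661 in pmk-1 in RPF. The intestinal sum was thus lower and the hypodermal and neuronal sums higher in ced-3 than in WT, and the moulting sum was higher in both mutants with the 2 pmk-1 samples far apart. Their part in the results below was not tested.

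The members took up a large part of each library, and most of it was elongation factors. The 38 genes held 3.27% and 3.37% of the counts of the WT mRNA libraries, 3.11% and 2.96% in ced-3, and 3.53% and 3.54% in pmk-1. In RPF they held 2.86% and 3.22% in WT, 1.94% and 2.36% in ced-3, and 3.33% and 3.38% in pmk-1. Wilson 95% intervals on these shares, which cover counting error only, were at most 0.0235 percentage points wide. The share was lowest in the 2 ced-3 libraries in both assays, without overlap with the other genotypes. The 6 elongation factor genes alone held 2.16% and 2.45% of WT RPF counts, 1.31% and 1.74% of ced-3 RPF counts, and 2.5% and 2.6% of pmk-1 RPF counts.

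Levels between genes are compared per length, as CPM per kb of exon for mRNA and per kb of coding sequence for RPF, with mean ± SD over the 2 WT libraries (n = 2). The elongation factors apart from eef-1B.2, and the eIF5A gene iff-2, stood highest in both assays. eef-1B.2 had 315 ± 24.0 in WT RPF and lay among the initiation factors. eef-1A.1, an eEF1A gene, had 7079 ± 399.8 CPM per kb in WT mRNA and 6402 ± 484 in WT RPF, and eef-2, the eEF2 gene, had 3694 ± 48.7 and 3644 ± 396. These were the highest 2 of the 38 in both assays. Next in RPF came the second eEF1A gene, eef-1A.2, with 2176 ± 136, the somatic eIF5A gene iff-2 with 1603 ± 112, and the eEF1B genes eef-1B.1 with 1311 ± 255 and eef-1G with 1018 ± 184. eef-1B.1 and eef-1G overlapped over their 2 libraries, and the other neighbours in this order did not.

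Subunits of the eIF3 scaffold stood close together in RPF per coding length. The 11 eIF3 genes ran from 186 CPM per kb (eif-3.L) to 372 (eif-3.I) in WT, a span of 2.00-fold, against 62.8 (eif-3.J) to 254 (eif-3.C) per kb of exon in mRNA, a span of 4.04-fold. The RPF span was 1.74-fold in ced-3 and 1.83-fold in pmk-1, and the mRNA span 3.66-fold and 4.27-fold. The wider mRNA span rested on eif-3.J. Without that gene it was 2.38-fold in WT, 2.12-fold in ced-3 and 2.34-fold in pmk-1. The 5 eIF2B genes spanned less in mRNA than in RPF, with 1.44-fold against 1.97-fold in WT. These spans are descriptions of few genes and were not tested.

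The core eIF2 subunits were at a like level in WT RPF, with 251 ± 38.1 CPM per coding kb for eif-2alpha, 282 ± 36.7 for eif-2beta and 214 ± 1.51 for eif-2gamma. Those of eIF2B, the factor that recharges eIF2, were several-fold lower, from 28.1 (eif-2Bdelta) to 55.5 (eif-2Bbeta). Among the eIF4E genes, ife-2 had 195 ± 8.88, ife-1 162 ± 4.81, ife-3 104 ± 11.1, ife-4 32.7 ± 3.17 and ife-5 2.63 ± 0.25 CPM per coding kb in WT. ife-5 rested on 11 to 45 counts per library and is the least precise of the 38. The eIF5A gene known for germline use, iff-1, was at 114 ± 15.04, far under the somatic iff-2.

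**Figure D1:**
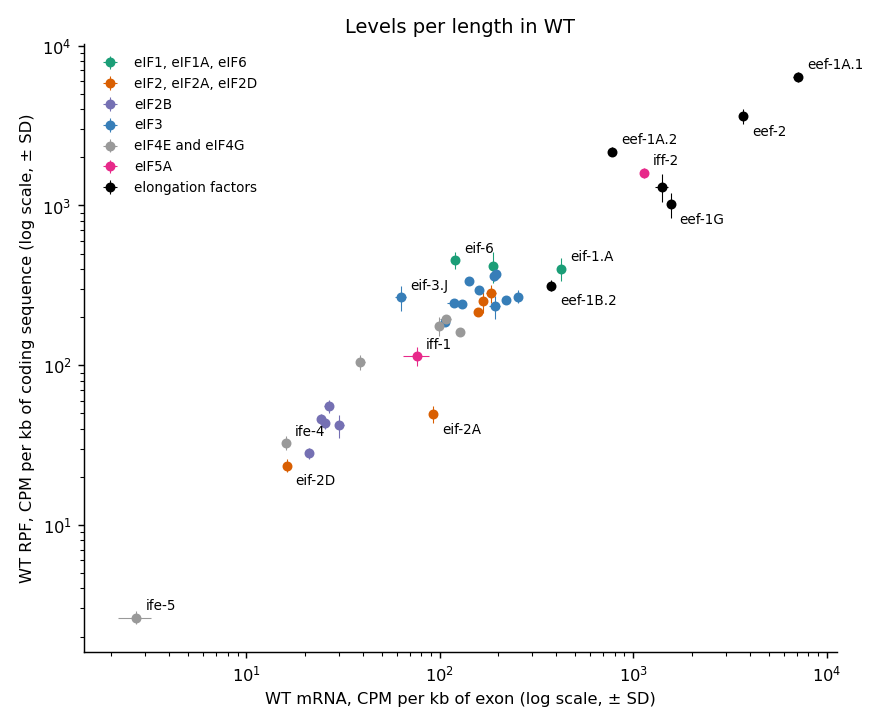
Levels of the 38 genes in WT, as mRNA per kb of exon (x axis) against RPF per kb of coding sequence (y axis), both in CPM per kb on log scales. Points are means of 2 libraries with SD bars, coloured by role; 5 elongation factors and iff-2 sit at the upper right, eef-1B.2 among the initiation factors, eIF2B and ife-4 lower, and ife-5 at 2.63 CPM per coding kb lies lowest.

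Against WT, every one of the 38 mRNAs was lower in ced-3 worms, by small amounts that no single gene carried past the threshold. The median log2 fold of the members was -0.28, beside 0.00 over all 13536 genes tested, and the values ran from -0.65 (eif-6) to -0.02 (ife-4). In 33 of 38 genes both ced-3 libraries lay below both WT libraries, and in none above, while 29.7% of all tested genes lay below in that way. All 38 passed the filter on low counts in each fit, so no member was left out. edgeR's quasi-likelihood test with Benjamini-Hochberg adjustment, at a threshold of 0.05, called 0 members (1.77% of all genes were called). In the same test 21 of 38 had an unadjusted p under 0.05 (23.5% of all genes), and DESeq2 called 2 members, eif-6 and eif-3.C, both lower (9.88% of all genes). All roles shared the direction, with medians from -0.35 for the 3 genes eif-1, eif-1.A and eif-6 to -0.17 for the eIF5A pair. Other genes of protein synthesis stood near them. The 33 aminoacyl-tRNA synthetase genes, which load amino acids on tRNAs, had a median of -0.29, with 2 called lower, and the 77 tested ribosomal protein genes -0.15, with 0 called.

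In pmk-1 worms the members leaned the other way, by less. Their median log2 fold in mRNA against WT was 0.08 (all genes 0.00), 32 were higher and 6 lower in sign, and both pmk-1 libraries lay above both WT libraries in 20 of 38, beside 22.5% of all genes. No member was called by edgeR (0.421% of all genes) or by DESeq2 (2.79%), and none had an unadjusted p under 0.05 (9.51% of all genes). The values lay between -0.11 (eif-6) and 0.32 (eef-1A.2). The pmk-1 difference was thus not detectable for any single factor with 2 libraries per group.

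**Figure D2:**
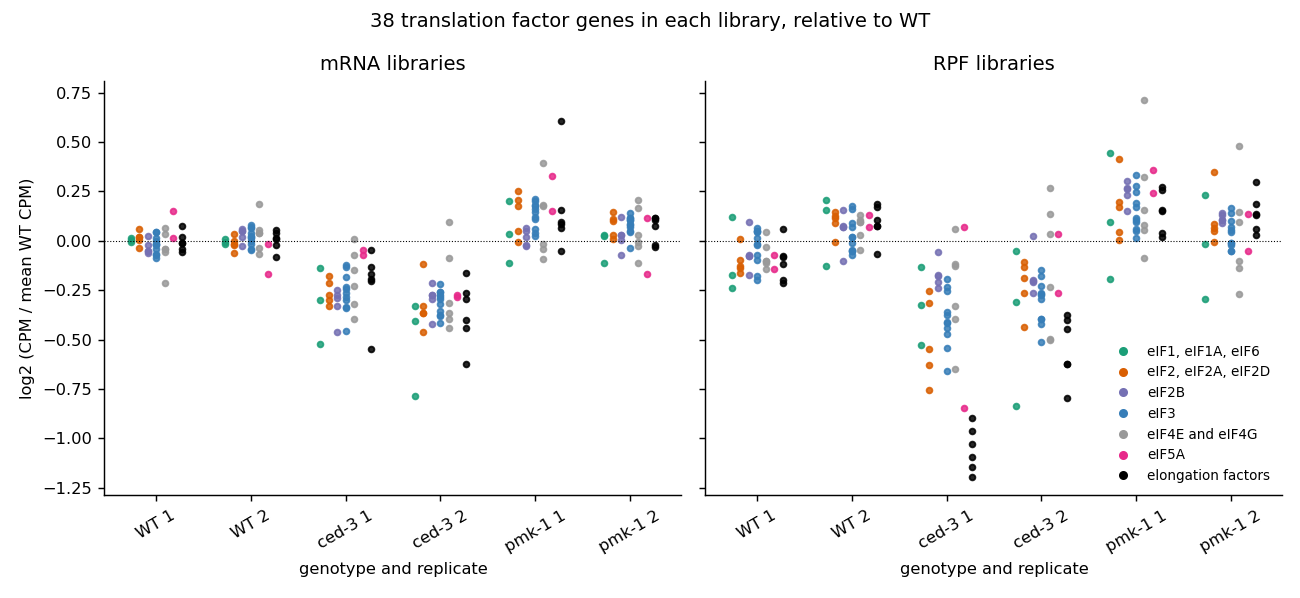
Log2 ratio of each member's CPM to its WT mean in every mRNA library (left) and RPF library (right), 1 point per gene, coloured by role and set side by side within a library. Most points of both ced-3 libraries lie below 0, and the 6 elongation factors (black) are lowest in RPF of ced-3 replicate 1.

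Set directly against each other, the 2 mutants gave 4 calls in mRNA, all initiation factors. This number is near the share of all genes called in either direction, and the calls depended on single libraries, as given below. All 38 mRNAs were lower in ced-3 than in pmk-1, with a median log2 fold of -0.35 (all genes -0.00), and in 36 of 38 both ced-3 libraries lay below both pmk-1 libraries (28.8% of all genes). edgeR called 4 members, all lower, where it called 9.21% of all genes in either direction and 2.5% as lower. The 4 calls include 2 subunits of eIF3, 1 of eIF2 and eif-2A. DESeq2 called 16 members, all lower (15.4% of all genes in either direction).

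eif-3.C (WBGene00001226, chromosome I, 9976426 to 9979662, reverse strand), a core eIF3 subunit, had 788 and 743 CPM in WT, 558 and 573 in ced-3, and 881 and 824 in pmk-1 in mRNA. It fell in ced-3 against pmk-1 by 0.59 on the log2 scale (SE 0.11, adjusted p = 0.036), and its fold against WT was -0.44 ± 0.11 (adjusted p = 0.09 by edgeR, 0.019 by DESeq2). The ced-3 libraries lay below all 4 others and the pmk-1 libraries above both of WT. Its RPF were 677 and 773 CPM in WT, 524 and 602 in ced-3, and 861 and 799 in pmk-1, in the same order, with a fold of -0.56 ± 0.17 for ced-3 against pmk-1 (adjusted p = 0.09).

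eif-3.H (WBGene00001231, chromosome I, 4444719 to 4446613, forward strand), an eIF3 subunit that budding yeast lacks, had 206 and 210.3 CPM in WT, 165 and 160.1 in ced-3, and 229.9 and 224 in pmk-1 in mRNA and 362 and 373 CPM in WT, 276 and 279.8 in ced-3, and 396 and 382 in pmk-1 in RPF. In mRNA the fold of ced-3 against pmk-1 was -0.48 ± 0.10 (adjusted p = 0.044), and in RPF -0.49 ± 0.14 (adjusted p = 0.085). In both assays the 3 genotypes did not overlap, with ced-3 lowest and pmk-1 highest.

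eif-2alpha (WBGene00021351, chromosome I, 2072680 to 2076925, forward strand) encodes the eIF2 subunit that stress kinases phosphorylate to slow initiation. Its mRNA was at 311 and 310.4 CPM in WT, 247 and 226 in ced-3, and 371 and 344 in pmk-1, and its RPF at 230.1 and 285 CPM in WT, 207 and 215 in ced-3, and 344 and 274 in pmk-1. The mRNA fold of ced-3 against pmk-1 was -0.59 ± 0.11 (adjusted p = 0.037), with no overlap among the 3 genotypes. In RPF the WT and pmk-1 libraries overlapped, and the fold was -0.55 ± 0.19 (adjusted p = 0.12).

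eif-2A (WBGene00008480, chromosome II, 10416800 to 10419237, forward strand) encodes a single-chain factor separate from the eIF2 trimer, described in yeast and mammals. Its mRNA had 191 and 186 CPM in WT, 153 and 150.0 in ced-3, and 217 and 202 in pmk-1, a fold of -0.47 ± 0.11 for ced-3 against pmk-1 (adjusted p = 0.049), the largest adjusted p of the 4. The libraries of the 3 genotypes again did not overlap. It shares 101 bp of exon with a gene on the opposite strand, and the use of strand in counting is not given in the sources used here, so a part of its counts is uncertain. The same limit holds for other members, with 167 bp shared in eif-2gamma, 138 in iff-1, 131 in eif-2Bdelta, 77 in eef-1A.1 and less in some others. The 4 mRNA calls of ced-3 against pmk-1 depended on single libraries. No member was called without ced-3 mRNA replicate 2 (2.72% of all genes) or without pmk-1 mRNA replicate 1 (0.458%). Without pmk-1 mRNA replicate 2 edgeR called 2 members, eef-1A.2 and ifg-1, and none of the 4 (7.14% of all genes). Without ced-3 mRNA replicate 1 it called 6, among them eif-3.C, eif-3.H and eif-2alpha but not eif-2A (13.1% of all genes). None was called with the replicate number as a block (4.17% of all genes were) or in a fit of ced-3 and pmk-1 alone (0% of all genes), while each fold kept its sign.

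In ribosome-protected fragments the elongation factors had the lowest median of the roles in ced-3 against WT. Against WT, 35 of 38 members were lower in ced-3 RPF, with a median log2 fold of -0.34 (all genes 0.01), and in 31 of 38 both ced-3 libraries lay below both WT libraries, beside 26.6% of all genes. The 6 elongation factors had a median of -0.78, from -0.88 (eef-1A.2) to -0.65 (eef-2), and the 32 initiation members -0.31. edgeR called 0 members (0.0554% of all genes), 13 had an unadjusted p under 0.05 (23.7% of all genes), and DESeq2 called 6, all lower (10.4% of all genes in either direction). Leaving out ced-3 RPF replicate 1 brought the median of the elongation factors to -0.54, and leaving out replicate 2 instead brought it to -1.07, with all 6 lower in either case. The summed ribosomal protein genes were also lowest in ced-3 RPF replicate 1, with 60435 and 76581 CPM in WT, 34753 and 63264 in ced-3, and 73788 and 75695 in pmk-1 in RPF. Their median fold was -0.47, with 76 of 77 lower and 0 called. The part of that library in the elongation factor folds, beyond these values, was not tested.

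Against pmk-1, ced-3 RPF gave 2 calls, both elongation factors. That is under the share of all genes called in either direction, and the calls depended on single libraries, as given below. The members' median log2 fold was -0.43 (all genes 0.02), 37 of 38 were lower, and both ced-3 libraries lay below both pmk-1 libraries in 35 (31.4% of all genes). edgeR called 2 members, both lower (8.61% of all genes in either direction, 2.56% as lower), and DESeq2 11, all lower (15.2% in either direction). With the replicate number as a block edgeR called 1 member (3.93% of all genes). The elongation factors had a median of -0.95 and the initiation members -0.42.

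eef-1A.2 (WBGene00001169, chromosome X, 7823654 to 7825769, forward strand), the second eEF1A gene, had 3156 and 2889 CPM in WT, 1553 and 1742 in ced-3, and 3655 and 3155 in pmk-1 in RPF. Its mRNA was at 1453 and 1540.0 CPM in WT, 1024 and 972 in ced-3, and 2278 and 1467 in pmk-1. Its RPF fell in ced-3 against pmk-1 with a log2 fold of -1.05 ± 0.17 (adjusted p = 0.034, 0.0498 with the replicate number as a block). In mRNA the fold was -0.91 ± 0.21 (adjusted p = 0.055), where pmk-1 replicate 1 was far above replicate 2. Both assays had the ced-3 libraries below all others.

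eef-1B.2 (WBGene00012768, chromosome IV, 15037331 to 15039551, forward strand), a subunit of the eEF1A exchange factor, had 527 and 587 CPM in WT, 273 and 362 in ced-3, and 572 and 568 in pmk-1 in RPF. Its mRNA was at 782 and 759.7 CPM in WT, 674 and 583 in ced-3, and 860.0 and 834 in pmk-1. Its RPF fell in ced-3 against pmk-1 with a fold of -0.84 ± 0.19 (adjusted p = 0.048, 0.059 with the replicate number as a block). The mRNA fold was -0.43 ± 0.12 (adjusted p = 0.076). In RPF the WT and pmk-1 libraries overlapped, and ced-3 lay below both.

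The other subunit gene, eef-1B.1 (WBGene00018846, chromosome III, 7972382 to 7973386, reverse strand), had 723 and 953 CPM in WT, 393 and 544 in ced-3, and 931 and 921 in pmk-1 in RPF. Its mRNA was at 1247 and 1119 CPM in WT, 1079 and 871 in ced-3, and 1140.2 and 1166 in pmk-1. The RPF fold of ced-3 against pmk-1 was -0.98 ± 0.23 and just missed the threshold (adjusted p = 0.051). eef-1G (WBGene00008920, chromosome V, 10965719 to 10967922, forward strand), the gamma subunit of the same complex, had 1079 and 1395 CPM in WT, 559.7 and 952 in ced-3, and 1481 and 1520.5 in pmk-1 in RPF. Its mRNA was at 2256 and 2292 CPM in WT, 2027 and 1856 in ced-3, and 2409.5 and 2462 in pmk-1. The RPF fold was -0.99 ± 0.28 (adjusted p = 0.083). For both genes ced-3 replicate 1 was the lowest of the 6 RPF libraries and ced-3 replicate 2 the next lowest.

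eef-1A.1 (WBGene00001168, chromosome III, 6970026 to 6971712, reverse strand) had 8416 and 9367 CPM in WT, 3888 and 6739 in ced-3, and 9891 and 10122 in pmk-1 in RPF, against 10446 and 11314 CPM in WT, 10553 and 9730.3 in ced-3, and 11392 and 11711 in pmk-1 in mRNA. The RPF fold of ced-3 against pmk-1 was -0.91 ± 0.28 (adjusted p = 0.093), while the mRNA fold was -0.19 ± 0.11 (adjusted p = 0.31), and in mRNA its ced-3 and WT libraries overlapped. eef-2 (WBGene00001167, chromosome I, 9163531 to 9166952, forward strand) had 8599 and 10031 CPM in WT, 5008 and 6845 in ced-3, and 9437 and 10179.7 in pmk-1 in RPF. Its mRNA was at 10248 and 10441 CPM in WT, 8973 and 8621 in ced-3, and 11041 and 10877 in pmk-1. The folds of ced-3 against pmk-1 were -0.73 ± 0.21 in RPF and -0.32 ± 0.10 in mRNA (adjusted p = 0.087 and 0.11). For all 6 genes ced-3 replicate 2 lay nearer to the other genotypes in RPF than ced-3 replicate 1 did. Both RPF calls were lost without pmk-1 RPF replicate 1, where 0 members and 0% of all genes were called, and without replicate 2, where 0 members and 5.32% of all genes were called. Without ced-3 RPF replicate 1 the 1 member called was eef-1A.2 (12% of all genes). Without ced-3 RPF replicate 2 the 6 elongation factors and iff-2 were called, 7 members in all (4.91% of all genes).

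**Figure D3:**
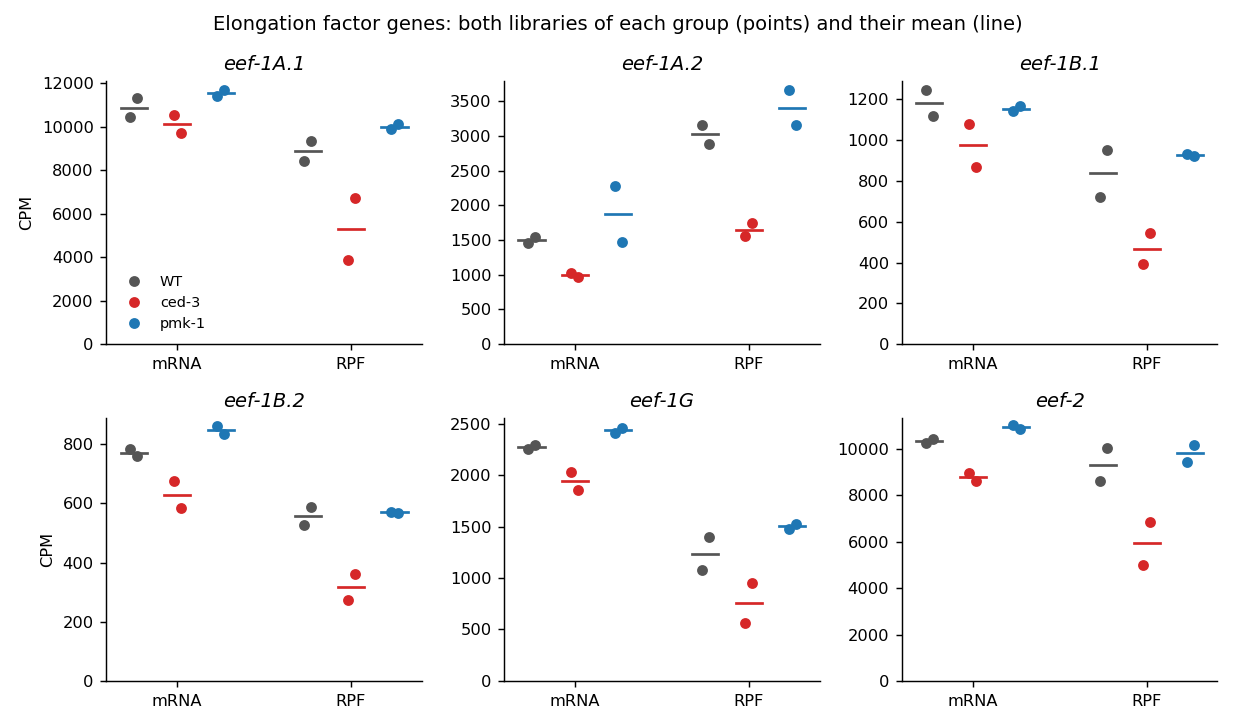
CPM of the 6 elongation factor genes in mRNA and RPF, with both libraries of each genotype as points (replicate 1 left, replicate 2 right) and their mean as a line, on axes that start at 0. In RPF the 2 ced-3 libraries lie below all others for each gene, whereas in mRNA the eef-1A.1 libraries of ced-3 and WT overlap.

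The 2 eEF1A genes are near-identical copies, so reads shared between them make the level of each uncertain. How such reads were assigned is not given in the sources used here. Of the counts of the pair, eef-1A.2 held 12.2% and 11.98% in WT mRNA, 8.84% and 9.08% in ced-3 mRNA, and 16.7% and 11.1% in pmk-1 mRNA. In RPF its part was 27.3% and 23.6% in WT, 28.5% and 20.5% in ced-3, and 26.98% and 23.8% in pmk-1. Its part was thus larger in RPF than in mRNA in each of the 6 worm samples, and in mRNA smallest in ced-3.

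pmk-1 RPF differed little from WT. The members' median log2 fold was 0.14 (all genes 0.01), 33 were higher in sign, and both pmk-1 libraries lay above both WT libraries in 15 of 38 (22% of all genes). No member was called by edgeR (0.182% of all genes) or DESeq2 (2.22%), none had an unadjusted p under 0.05 (8.68% of all genes), and the elongation factors had a median of 0.16.

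Whether RPF moved beyond mRNA was asked with the interaction of genotype and assay over all 12 libraries, here called translation efficiency. No member passed edgeR's test in any of the 3 comparisons, where 0% of all genes were called in each. With the worm sample as a block it again called no member, and of all genes 0.0219% in ced-3 against WT, 0.0146% in pmk-1 against WT and 0.0292% in ced-3 against pmk-1. DESeq2 called no member either, with 0.0073%, 0.0365% and 0% of all genes. With so few calls over all genes, the lack of a member call does not show that RPF followed mRNA. Unadjusted p was under 0.05 for 0 members in ced-3 against WT (1.61% of all genes), 0 in pmk-1 against WT (1.26%) and 1 in ced-3 against pmk-1 (1.83%), eef-1B.1 with -0.68 ± 0.27. For ced-3 against WT the elongation factors had a median of -0.44 and all 6 values were negative, the initiation members had 0.08, and all genes 0.06. Leaving out ced-3 replicate 1 brought that elongation median to -0.13, and leaving out replicate 2 instead to -0.82, so its size depended on the library. In ced-3 against pmk-1 the elongation median was -0.47 (-0.17 without ced-3 replicate 1), and in pmk-1 against WT 0.04.

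The summed CPM of the 6 elongation genes in each worm sample is carried mostly by eef-1A.1 and eef-2. Taken singly, eef-1B.1 and eef-1G had ratios of RPF to mRNA that overlapped between ced-3 and WT. For the sum, RPF divided by mRNA was 0.851 and 0.918 in WT, 0.48 and 0.759 in ced-3, and 0.892 and 0.928 in pmk-1. Both ced-3 samples thus lay under the other 4. For the 32 initiation members the same ratio was 1.07 and 1.15 in WT, 0.978 and 1.14 in ced-3, and 1.11 and 1.09 in pmk-1, with the genotypes overlapping. The ribosomal protein genes had a median translation efficiency of -0.27 in ced-3 against WT, with 75 of 77 negative and 0 called.

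**Figure D4:**
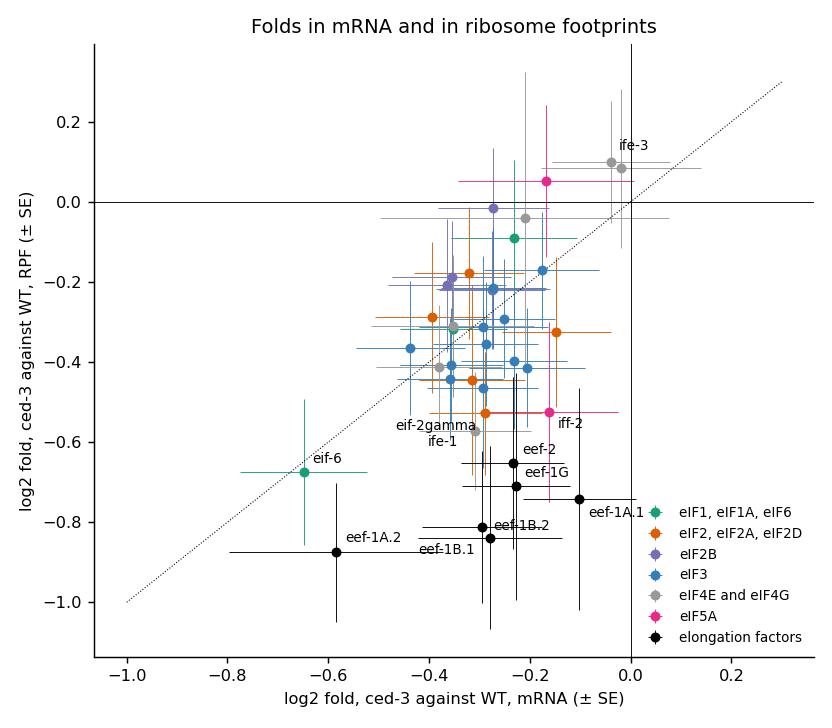
Log2 fold of ced-3 against WT in mRNA (x axis) and in RPF (y axis) for the 38 genes, with SE bars, coloured by role; the dotted line marks equal folds. All points lie left of 0 on the x axis, and the 6 elongation factors lie below the line at RPF folds from -0.88 to -0.65.

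Within a genotype, 17 to 20 of the 38 members passed as different between RPF and mRNA, and the sign was shared by WT, ced-3 and pmk-1 for nearly every member. These folds come from a fit of all 12 libraries, in which the median of all genes was 0.01 for WT, 0.08 for ced-3 and 0.04 for pmk-1, so they rank genes against a typical gene and give no absolute rate. Footprints fall mainly on coding sequence, and the coding share of a gene's exons, given below for some members, is the same in all genotypes. Its part in these folds was not tested. edgeR called 18 of 38 members in WT, 10 higher and 8 lower, where it called 33.2% of all genes, 13.6% as higher and 19.6% as lower. It called 20 in ced-3, 11 higher and 9 lower (35.9% of all genes, 16.7% and 19.1% by direction), and 17 in pmk-1, 11 higher and 6 lower (34.3%, 14.7% and 19.6%). As shares of the members these are 47.4%, 52.6% and 44.7%. With the worm sample as a block the counts were 22, 28 and 25, or 57.9%, 73.7% and 65.8% of the members, beside 52.4%, 57.5% and 54.4% of all genes. With library totals in place of TMM factors, which moved the median of all genes by 0.18 to 0.21, the splits were 16 higher and 6 lower, 19 and 9, and 20 and 5 (34.9%, 38.4% and 38% of all genes called). Of all genes 20.1% were then higher and 14.8% lower in WT, 23.4% and 15% in ced-3, and 23.1% and 14.9% in pmk-1. Without WT replicate 1 the WT count was 4 (10.9% of all genes), and without WT replicate 2 it was 6 (11.8%). Without pmk-1 replicate 1 the pmk-1 count was 6 (14.8%), and without replicate 2 also 6 (14.3%). The sign was the same in all 3 genotypes for 37 of 38 genes, the exception being eif-2beta near 0. In all 3 genotypes 8 members passed as higher (10.8% of all genes) and 6 as lower (15.3%). With the worm sample as a block these were 13 (20.7% of all genes) and 8 (21.3%). Since the same 12 libraries enter 1 fit, the 3 lists share its estimate of spread.

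The members with the most footprints for their mRNA were eif-3.J and eif-6; folds named with no comparison from here on are of RPF against mRNA. eif-3.J (WBGene00012738, chromosome I, 13435489 to 13437963, forward strand), the loosely bound eIF3 subunit, had 54.5 and 59.7 CPM in WT, 48.7 and 44.7 in ced-3, and 64.6 and 55.8 in pmk-1 in mRNA and 147 and 191 CPM in WT, 144 and 129 in ced-3, and 171 and 163 in pmk-1 in RPF. Its log2 fold of RPF against mRNA was 1.35 ± 0.15 for WT, 1.40 ± 0.15 for ced-3 and 1.26 ± 0.15 for pmk-1 (adjusted p = 2.7e-04, 2.3e-04 and 3.3e-04). eif-6 (WBGene00001234, chromosome I, 12968946 to 12970272, forward strand), which keeps large subunits from joining small ones too early, had 122 and 119.6 CPM in WT, 84.1 and 70.1 in ced-3, and 112 and 112 in pmk-1 in mRNA. Its RPF values were 363 and 306 CPM in WT, 232 and 187 in ced-3, and 292 and 272 in pmk-1, with folds of 1.26 ± 0.15 for WT, 1.29 ± 0.15 for ced-3 and 1.12 ± 0.15 for pmk-1 (adjusted p = 3.5e-04, 3.1e-04 and 5.5e-04). Every RPF value of each gene exceeded all of its mRNA values, each on its own assay's CPM scale. eif-6 also had the lowest member fold of ced-3 against WT in mRNA, -0.65 ± 0.13 (adjusted p = 0.062 by edgeR, 0.0029 by DESeq2), and both its ced-3 libraries lay below all others in either assay. Coding sequence makes up 70.0% of the exons of eif-3.J and 73.4% of those of eif-6.

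At the other end stood eif-2A, the lowest member in WT and pmk-1, while eef-1G was lowest in ced-3. The RPF of eif-2A were 77.5 and 91.9 CPM in WT, 50.2 and 74.2 in ced-3, and 84.9 and 108 in pmk-1 against the mRNA levels given above. Its fold of RPF against mRNA was -1.37 ± 0.19 for WT, -1.43 ± 0.19 for ced-3 and -1.34 ± 0.19 for pmk-1 (adjusted p = 7.9e-04, 6.2e-04 and 8.2e-04). Coding sequence makes up 83.4% of its exons. Among the core eIF2 subunits, eif-2alpha had folds of -0.48 ± 0.15 for WT, -0.32 ± 0.15 for ced-3 and -0.43 ± 0.15 for pmk-1 (adjusted p = 0.033, 0.13 and 0.052). With the worm sample as a block the adjusted p were 0.0022, 0.03 and 0.005, and the gene has 55.0% coding exons. Per kb, its means in mRNA and RPF were 167 and 251 CPM in WT, 127 and 206 in ced-3, and 192 and 301 in pmk-1. By that measure RPF exceeded mRNA. eif-2gamma, the subunit that binds GTP and the initiator tRNA, had 269 and 263 CPM in WT, 229.6 and 206 in ced-3, and 301 and 287 in pmk-1 in mRNA and 303 and 300.1 CPM in WT, 195 and 223 in ced-3, and 339.7 and 312 in pmk-1 in RPF. Its RPF against mRNA passed in no genotype, and its RPF fold of ced-3 against pmk-1 was -0.64 ± 0.15 (adjusted p = 0.055). The remaining eIF2 members, eif-2beta and eif-2D (a ligatin-related factor), passed in no comparison, with eif-2beta between 157 and 211 CPM in mRNA and eif-2D between 26.2 and 30.7.

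In eIF2B, 3 of 5 subunits passed as higher in RPF than in mRNA in every genotype, beside 10.8% of all genes. The regulatory subunit gene eif-2Bbeta had 29.7 and 32.3 CPM in WT, 25.4 and 23.1 in ced-3, and 30.5 and 29.5 in pmk-1 in mRNA. The gene had 60.4 and 52.8 CPM in WT, 50.0 and 49.3 in ced-3, and 62.9 and 61.9 in pmk-1 in RPF, with folds of 0.65 ± 0.11 for WT, 0.88 ± 0.11 for ced-3 and 0.84 ± 0.11 for pmk-1 (adjusted p = 0.0023, 5.1e-04 and 6.1e-04). eif-2Balpha, another regulatory subunit, had 26.5 and 25.5 CPM in WT, 21.9 and 21.2 in ced-3, and 27.2 and 26.5 in pmk-1 in mRNA. In RPF it had 40.2 and 44.4 CPM in WT, 40.7 and 43.0 in ced-3, and 52.2 and 45.5 in pmk-1, with folds of 0.49 ± 0.11 for WT, 0.81 ± 0.11 for ced-3 and 0.65 ± 0.11 for pmk-1 (adjusted p = 0.0099, 8.2e-04 and 0.0023). In this gene ced-3 was lowest of all in mRNA but overlapped WT in RPF. eif-2Bgamma, of the catalytic side, had 33.2 and 34.2 CPM in WT, 26.8 and 29.0 in ced-3, and 34.1 and 36.7 in pmk-1 in mRNA. Its RPF values were 49.6 and 55.0 CPM in WT, 46.5 and 43.5 in ced-3, and 62.8 and 57.7 in pmk-1, with folds of 0.42 ± 0.11 for WT, 0.54 ± 0.12 for ced-3 and 0.55 ± 0.11 for pmk-1 (adjusted p = 0.02, 0.0063 and 0.0055). The catalytic subunit gene eif-2Bepsilon had 66.6 and 71.6 CPM in WT, 50.2 and 57.2 in ced-3, and 68.0 and 69.3 in pmk-1 in mRNA. It had 74.4 and 93.7 CPM in WT, 72.7 and 72.8 in ced-3, and 98.6 and 89.3 in pmk-1 in RPF and passed only in ced-3 with the worm sample as a block (adjusted p = 0.029). eif-2Bdelta passed in no genotype, with folds of -0.24 ± 0.11 for WT, -0.13 ± 0.11 for ced-3 and -0.09 ± 0.11 for pmk-1.

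Besides eif-3.J, the eIF3 genes divided by subunit. eif-3.H had folds of 0.61 ± 0.10 for WT, 0.62 ± 0.10 for ced-3 and 0.57 ± 0.10 for pmk-1 (adjusted p = 0.0018, 0.0015 and 0.0025). eif-3.K had 93.5 and 105 CPM in WT, 90.4 and 85.1 in ced-3, and 112 and 108 in pmk-1 in mRNA. The gene had 177 and 174 CPM in WT, 154 and 158 in ced-3, and 201 and 174 in pmk-1 in RPF, with folds of 0.61 ± 0.12 for WT, 0.68 ± 0.12 for ced-3 and 0.56 ± 0.12 for pmk-1 (adjusted p = 0.0035, 0.0019 and 0.0054). Both were past the threshold in each genotype. eif-3.L had 207 and 213 CPM in WT, 172 and 176 in ced-3, and 243 and 231 in pmk-1 in mRNA. Its RPF stood at 312 and 290.1 CPM in WT, 252 and 266 in ced-3, and 364 and 323 in pmk-1, and it passed in ced-3 (fold 0.43 ± 0.11, adjusted p = 0.016) and with the block in all 3. eif-3.E had 255 and 270.3 CPM in WT, 213 and 217 in ced-3, and 267 and 276 in pmk-1 in mRNA. Its RPF stood at 396 and 370.2 CPM in WT, 282 and 316 in ced-3, and 415 and 380.5 in pmk-1, and it passed in pmk-1 (fold 0.34 ± 0.11, adjusted p = 0.048) and likewise with the block in all 3. These 4 and eif-3.J all had positive folds in every genotype.

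eif-3.I had 245 and 251 CPM in WT, 228 and 202 in ced-3, and 268 and 256 in pmk-1 in mRNA. Its RPF stood at 382 and 348 CPM in WT, 275 and 273 in ced-3, and 381 and 352 in pmk-1, and it passed in WT (fold 0.34 ± 0.11, adjusted p = 0.045), and with the block also in pmk-1. eif-3.G had 140.2 and 140.5 CPM in WT, 118.6 and 117 in ced-3, and 157 and 149 in pmk-1 in mRNA. Its RPF stood at 188 and 192 CPM in WT, 148 and 162 in ced-3, and 239 and 213 in pmk-1, and it passed in pmk-1 (fold 0.35 ± 0.11, adjusted p = 0.032), and with the block also in ced-3. eif-3.F had 241 and 236 CPM in WT, 210.5 and 196 in ced-3, and 245 and 247 in pmk-1 in mRNA. Its RPF stood at 302 and 333 CPM in WT, 218 and 265 in ced-3, and 358 and 327 in pmk-1, and it passed in none, nor did eif-3.B, eif-3.C and eif-3.D, whose folds were negative in each genotype and lay between -0.29 and -0.08. An eIF3 gene outside the naming rule, cif-1, had folds of 0.71 ± 0.12, 0.69 ± 0.12 and 0.64 ± 0.12 in WT, ced-3 and pmk-1, and was chosen after the table had been read. Passing in 1 genotype and not in another is not shown to be a difference, since the interaction called no member and 0% of all genes.

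The cap-binding genes went different ways. ife-3, the eIF4E gene needed for viability, had 41.8 and 45.1 CPM in WT, 43.7 and 40.9 in ced-3, and 49.1 and 44.3 in pmk-1 in mRNA. In RPF it had 72.7 and 84.4 CPM in WT, 81.9 and 86.4 in ced-3, and 81.7 and 73.1 in pmk-1, with folds of RPF against mRNA of 0.64 ± 0.12 for WT, 0.84 ± 0.12 for ced-3 and 0.52 ± 0.12 for pmk-1 (adjusted p = 0.0038, 9.5e-04 and 0.011). For this 1 member both ced-3 libraries lay above both pmk-1 libraries in RPF (31.3% of all genes), with a fold of 0.12 ± 0.15 (adjusted p = 0.63). ife-1, the eIF4E gene linked to sperm production, had 130.2 and 124 CPM in WT, 109 and 96.8 in ced-3, and 119.4 and 118 in pmk-1 in mRNA. Its RPF values were 109.8 and 114.5 CPM in WT, 71.5 and 79.3 in ced-3, and 106 and 93.1 in pmk-1, with folds of -0.39 ± 0.11 for WT, -0.60 ± 0.11 for ced-3 and -0.47 ± 0.11 for pmk-1 (adjusted p = 0.025, 0.0036 and 0.011). It shares 246 bp of exon with dro-1 on the same strand and resembles ife-5 closely, so its counts are uncertain.

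ife-2, a somatic eIF4E gene, had 93.5 and 85.4 CPM in WT, 71.7 and 65.8 in ced-3, and 102 and 89.1 in pmk-1 in mRNA and 138 and 129 CPM in WT, 106 and 94.6 in ced-3, and 141 and 121 in pmk-1 in RPF. Its folds were 0.37 ± 0.13 for WT, 0.40 ± 0.13 for ced-3 and 0.25 ± 0.13 for pmk-1, past the threshold in ced-3 alone (adjusted p = 0.052, 0.037 and 0.17) and in all 3 with the worm sample as a block (0.0044, 0.0025 and 0.039). ife-4, the eIF4E form of neurons and muscle, had 13.2 and 13.9 CPM in WT, 12.3 and 14.5 in ced-3, and 13.4 and 15.2 in pmk-1 in mRNA and 19.4 and 22.2 CPM in WT, 19.03 and 25.02 in ced-3, and 23.2 and 22.2 in pmk-1 in RPF, and its genotypes overlapped in both assays. Its folds of RPF against mRNA were 0.40 ± 0.17 for WT, 0.57 ± 0.17 for ced-3 and 0.45 ± 0.17 for pmk-1 (adjusted p = 0.1, 0.029 and 0.072). ife-5 had 1.98 and 2.61 CPM in WT, 2.18 and 1.78 in ced-3, and 2.23 and 2.65 in pmk-1 in mRNA. It had 1.48 and 1.69 CPM in WT, 1.46 and 1.62 in ced-3, and 2.60 and 2.21 in pmk-1 in RPF and passed no test. ifg-1, the eIF4G gene, had 448 and 474 CPM in WT, 351 and 371 in ced-3, and 605 and 453 in pmk-1 in mRNA. The gene had 557 and 675 CPM in WT, 469 and 524 in ced-3, and 771 and 680.2 in pmk-1 in RPF, with folds of ced-3 against pmk-1 of -0.55 ± 0.16 in mRNA and -0.55 ± 0.18 in RPF (adjusted p = 0.086 and 0.11). Of these 6 genes, ife-1, ife-2 and ifg-1 had both ced-3 libraries under both WT libraries in mRNA, and ife-3, ife-4 and ife-5 did not. Of all tested genes 29.7% lay below in that way, so the split is not read as a trait of this family.

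The single-protein factors eif-1 and eif-1.A, which hold the small subunit open for start-codon choice, had folds of opposite sign. eif-1.A had 408 and 405 CPM in WT, 330.4 and 307 in ced-3, and 416 and 415 in pmk-1 in mRNA. In RPF it had 231 and 291 CPM in WT, 208 and 211 in ced-3, and 279 and 258 in pmk-1, with folds of RPF against mRNA of -0.85 ± 0.13 for WT, -0.75 ± 0.13 for ced-3 and -0.84 ± 0.13 for pmk-1 (adjusted p = 0.0012, 0.0021 and 0.0012). eif-1 had 109 and 110.5 CPM in WT, 99.9 and 87.2 in ced-3, and 126 and 112 in pmk-1 in mRNA. Its RPF values were 115.4 and 157 CPM in WT, 125 and 132 in ced-3, and 186 and 160.2 in pmk-1, with folds of 0.10 ± 0.16 for WT, 0.30 ± 0.16 for ced-3 and 0.32 ± 0.16 for pmk-1, past the threshold in ced-3 and pmk-1 with the block alone (adjusted p = 0.03 and 0.023). The eIF5A genes, whose product helps ribosomes through difficult peptide bonds, had opposite signs too, in folds that take no account of length. Per kb, as above, WT mRNA and RPF were at 1129 and 1603 CPM for iff-2 and 76.0 and 114 for iff-1. By that measure RPF exceeded mRNA for both genes. Coding sequence makes up 86.8% of the exons of iff-1. iff-2 had 1155 and 1132 CPM in WT, 1107 and 938 in ced-3, and 1436 and 1241 in pmk-1 in mRNA. The gene had 736 and 813 CPM in WT, 432 and 645 in ced-3, and 915 and 851 in pmk-1 in RPF, with folds of -0.77 ± 0.19 for WT, -1.08 ± 0.19 for ced-3 and -0.81 ± 0.19 for pmk-1 (adjusted p = 0.013, 0.0025 and 0.0099) and 47.7% coding exons, the lowest of the 38. iff-1 had 56.9 and 45.6 CPM in WT, 48.8 and 42.4 in ced-3, and 56.9 and 45.6 in pmk-1 in mRNA. It had 60.7 and 73.1 CPM in WT, 70.1 and 68.6 in ced-3, and 85.6 and 64.5 in pmk-1 in RPF, and its genotypes overlapped in both assays. Its folds were 0.17 ± 0.18 for WT, 0.46 ± 0.18 for ced-3 and 0.34 ± 0.18 for pmk-1, past the threshold with the block alone in ced-3 and pmk-1 (adjusted p = 0.005 and 0.031). The germline marker sum, with 558 and 571 CPM in WT, 561 and 537 in ced-3, and 645 and 524 in pmk-1 in mRNA, overlapped between genotypes as well.

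Elongation factors apart from eef-1A.2 had negative folds of RPF against mRNA in every genotype, though not all passed. These folds take no account of length. The folds of RPF against mRNA were -1.09 ± 0.23 for WT, -1.51 ± 0.23 for ced-3 and -0.91 ± 0.23 for pmk-1 for eef-1G (adjusted p = 0.0063, 0.0012 and 0.014), -0.68 ± 0.15 for WT, -1.14 ± 0.15 for ced-3 and -0.78 ± 0.15 for pmk-1 for eef-1B.2 (adjusted p = 0.0082, 6.4e-04 and 0.0039) and -0.71 ± 0.19 for WT, -1.21 ± 0.20 for ced-3 and -0.53 ± 0.19 for pmk-1 for eef-1B.1 (adjusted p = 0.021, 0.0016 and 0.062). eef-1A.1 and eef-2 passed in ced-3 alone, with -1.08 ± 0.23 and -0.72 ± 0.18 (adjusted p = 0.0065 and 0.012), against -0.50 ± 0.23 and -0.36 ± 0.18 in WT. The difference was tested by the interaction given above, which did not pass. eef-1A.2 went the other way, with 0.80 ± 0.20 for WT, 0.57 ± 0.20 for ced-3 and 0.65 ± 0.20 for pmk-1 (adjusted p = 0.014, 0.051 and 0.032). The ribosomal protein genes had a median in WT of -1.03, with 56 of 77 called lower and 0 higher (19.6% and 13.6% of all genes).

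**Figure D5:**
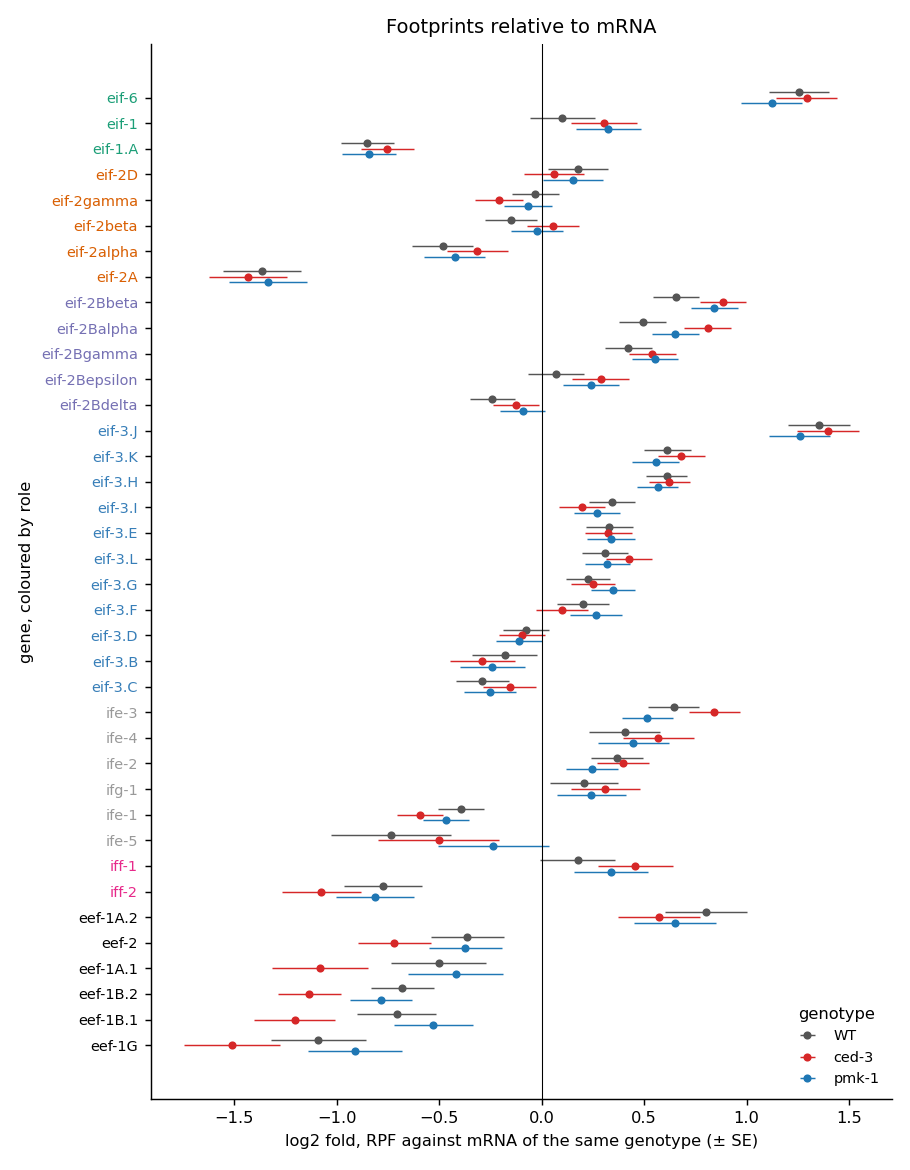
Log2 fold of RPF against mRNA (± SE) for the 38 genes in WT, ced-3 and pmk-1, grouped by role and sorted by the WT value. The 3 genotypes lie close together for most initiation factors, eif-3.J and eif-6 lie highest and eif-2A low, and the ced-3 points of the 6 elongation factors lie left of the WT and pmk-1 points.

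Other genes of the pathway, from a list of 38 names of which 32 were found and 31 tested, were tested in the same fits. In mRNA of ced-3 against pmk-1, 4 of 31 fell and 0 rose, beside 2.5% of all genes called lower, with a list median of -0.30. They were clu-1, whose yeast counterpart associates with eIF3 (-0.81 ± 0.15, adjusted p = 0.035), abcf-1, an ABC-F protein (-0.54 ± 0.11, 0.039), and the release factor genes erfa-1 (-0.56 ± 0.12, 0.044) and erfa-3 (-0.47 ± 0.10, 0.046). The eIF3 subunit egl-45, named after the table had been read, had -0.51 ± 0.11 (adjusted p = 0.044). In RPF clu-1 alone fell (-1.01 ± 0.18, adjusted p = 0.035). In ced-3 and pmk-1 against WT none of the 31 was called in either assay.

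For RPF against mRNA in WT, 14 of the 31 were lower and 1 higher, beside 19.6% and 13.6% of all genes. The higher gene was the eIF4A helicase inf-1, with 1.47 ± 0.14 (adjusted p = 1.5e-04), and it was also higher in ced-3 (1.51 ± 0.15) and pmk-1 (1.39 ± 0.14). Among the lower were the poly(A)-binding protein gene pab-1 (-1.65 ± 0.28, adjusted p = 0.0022), the eIF2alpha kinases gcn-2 (-1.48 ± 0.22, 0.0012) and pek-1 (-1.14 ± 0.15, 6.2e-04), the TOR kinase let-363 (-1.33 ± 0.11, 8.7e-05) and its partner daf-15 (-0.85 ± 0.13, 9.8e-04). The factors themselves had 9 higher and 5 lower calls among the 32 initiation members in the same test, beside the same shares of all genes.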

How the data were processed

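The authors deposited 1 table of read counts for all libraries, as whole numbers that were not normalized, per the file headers and the values. Bowtie2, STAR and HTSeq with WBcel235 are named, per the submitters' processing notes, without roles or versions; the annotation release, strand use and treatment of reads with several matches are not given in the sources used here. Coordinates and lengths came from the Ensembl annotation of that build.

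The tests were fitted in R 4.3.3 with edgeR 4.0.16, using TMM factors, filterByExpr (minimum count 10, total 15), robust glmQLFit, glmQLFTest and a threshold of 0.05 on p adjusted by Benjamini-Hochberg across the genes of a fit. The fits took 6 mRNA libraries (13536 genes), 6 RPF libraries (12633) and all 12 (13698), the last for translation efficiency and RPF against mRNA. Folds are log2 ± SE, the SE being the fold over the square root of F. The script was checked on simulated counts with changes larger than any member's fold between genotypes and with mRNA and RPF unpaired. That check does not cover smaller changes or paired assays. Alternatives were RLE factors, library totals, no filter, DESeq2 1.42.0, a replicate block, compared groups alone and leaving out each library. With 1 library left in a group, it is assumed to vary like the others.

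Per the labels, mRNA and RPF of a replicate come from the same worms, so the number pairs samples in the 12-library fit. The replicate differences of the 2 assays had correlations of 0.27 (WT), 0.73 (ced-3) and 0.82 (pmk-1), computed over 9918 genes. The replicates are labelled biological but not as separate cultures, so p measures the spread between these samples. Values in every library are given for members past the threshold in any comparison, with or without the block, for the member with the smallest p of each role in ced-3 against pmk-1, and for paralogs. The members and gene lists were chosen with earlier results of these data known.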

Additional observations from a re-analysis of the deposited data

How the results depend on the processing

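Counts of members past the threshold between genotypes moved with the setting, always in the lower direction for ced-3. For ced-3 against WT the mRNA count of 0 became 1 with no filter and 2 with DESeq2 (9.88% of all genes). The RPF count of 0 became 4 with no filter and 6 with DESeq2 (10.4% of all genes). For ced-3 against pmk-1 the mRNA count of 4 became 2 with library totals, 7 with no filter and 16 with DESeq2 (15.4% of all genes). It became 0 with the compared groups alone (0% of all genes). The RPF count of 2 became 8 with no filter, 11 with DESeq2 (15.2% of all genes) and 0 with the compared groups alone. Each of these counts also moved when single libraries were left out. The share of all genes called moved between settings too, and where no share is printed it is not given here. These counts are therefore not read as a result about the members. With the replicate number as a block the counts for ced-3 against pmk-1 became 0 in mRNA (4.17% of all genes) and 1 in RPF (3.93%). The labels do not say whether the numbers pair samples across genotypes. Replicate differences of different genotypes had correlations of -0.21 to 0.12. The cause of these moves was not tested. Counts of RPF against mRNA fell in each genotype without single worm samples, where fewer samples enter the fit. All other counts in either direction, including those with the worm block, stayed within 1.5 times. By direction, library totals moved the higher calls from 10 to 16 in WT, 11 to 19 in ced-3 and 11 to 20 in pmk-1, and the block moved those higher in all 3 from 8 to 13.

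Of 60 alternatives for the 6 genes called between genotypes, 29 kept the call, 31 lost it and 0 reversed; within genotypes, of 385 for 55 calls, 316 kept it and 69 lost it. Over all settings 36 to 38 members were lower in ced-3 than in WT in mRNA, with medians of -0.32 to -0.20, and 32 to 37 in RPF. Library totals moved the median of all genes by 0.14 in RPF of ced-3 against WT. Depth limits ife-5, at 11 to 45 counts.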

Other observations

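The mitochondrial elongation factor genes tufm-1, tufm-2, tsfm-1 and gfm-1, which serve the ribosomes inside mitochondria, fall outside the naming rule and were picked after the table had been read, so their counts are a description. In ced-3 against pmk-1, 2 of 4 were called lower by edgeR in mRNA (log2 folds -0.70 to -0.59, median -0.67) and 2 of 4 in RPF (median -0.87), beside 2.5% and 2.56% of all genes. Against WT, all 4 were lower in sign in ced-3, with medians of -0.54 in mRNA and -0.71 in RPF, and 0 were called by edgeR.

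Of the 33 aminoacyl-tRNA synthetase genes, 8 were called lower by edgeR in ced-3 than in pmk-1 in mRNA, with a median of -0.37, where 2.5% of all genes were called lower. In RPF 0 of 32 were, with a median of -0.54, beside 2.56% of all genes.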
